A study of Rattus norvegicus with 12 samples.

Results

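The colony-stimulating factors and their receptors were followed in left ventricular myocardium of male Sprague Dawley (SD) rats after myocardial infarction (MI). The 7 genes were the ligands Csf1, Csf2 and Csf3 and the receptor genes Csf1r, Csf2ra, Csf2rb and Csf3r, taken by symbol from 34599 genes in the count table. They were chosen on measured values of these same rats, because Csf3 was almost absent in MI and high after treatment. For these 7 genes the difference between iCarP+/Light+ and MI rats is therefore described without a test, as are all values of Csf3.

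RNA from the MI region of the heart was sequenced 1 day after surgery in 12 rats, 4 per group. Sham rats had their chest opened while the anterior descending branch of the left coronary artery (LAD) was not tied. In MI rats the LAD was ligated and no device was placed. In iCarP+/Light+ rats the LAD was ligated, a suspension of the photosynthetic alga Chlorella was injected into the infarcted ventricle, the illuminative cardiac patch (iCarP, a light-scattering polymer patch with an optical fiber) was glued to the epicardium, and the patch was lit. The alga, the injection, the patch, the adhesive and the light were all given together and cannot be told apart here, and RNA from rats with an unlit patch was not analysed here. Male SD rats that carried the patch in live animals were 6 weeks old, and no separate age is stated for the infarction experiment.

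Colony-stimulating factors are cytokines that drive the production, survival and activation of myeloid blood cells. Csf1 (M-CSF) supports monocytes and macrophages through the receptor tyrosine kinase Csf1r. Csf2 (GM-CSF) binds the alpha chain Csf2ra, which signals together with the common beta chain Csf2rb shared with the interleukin 3 and interleukin 5 receptors. Csf3 (G-CSF) drives neutrophil production and release through Csf3r, and in an infarcted heart these receptors are carried mainly by infiltrating neutrophils, monocytes and macrophages. In bulk tissue, fewer cells of a type and less RNA per cell cannot be told apart.

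Total counts lay between 14064414 and 17136958 per rat. Levels are given as CPM (counts per 1000000 counts of the library) after scaling by trimmed mean of M values (TMM), as mean ± SD with n = 4, and levels of different genes were ranked only per gene length, as RPKM. A count of 3, taken as the floor of detection, corresponded to between 0.144 and 0.228 CPM in a rat, which covers counting error only. The cardiac origin of the tissue was apparent in Sham rats, in which 6 cardiomyocyte markers summed to between 21800 and 25800 CPM. In MI rats this sum was between 1360 and 2810 CPM and in iCarP+/Light+ rats between 1200 and 3220 CPM, so the tissue compared with Sham contained far less cardiomyocyte RNA in both infarcted groups.

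Of the 7 genes, 4 had a promoter entry in the RefSeq table of build GRCr8, namely Csf2, Csf1r, Csf2ra and Csf3r. The 250 bases before the start of Csf2 and Csf3r are shown because Csf2 is a ligand induced through inflammatory promoter elements and Csf3r was the receptor gene with the largest difference between groups. Capitals mark matches, on either strand, to the core of the cytokine element CK-1 (GAGATTCC), the ETS core that PU.1 binds (GAGGAAG), the AP-1 motif (TGANTCA) and a TATA motif (TATANAA). The Csf2 window lies at chr10:38889674-38889923 on the minus strand and the Csf3r window at chr5:143582970-143583219 on the plus strand, each written 5′ to 3′.
Csf2: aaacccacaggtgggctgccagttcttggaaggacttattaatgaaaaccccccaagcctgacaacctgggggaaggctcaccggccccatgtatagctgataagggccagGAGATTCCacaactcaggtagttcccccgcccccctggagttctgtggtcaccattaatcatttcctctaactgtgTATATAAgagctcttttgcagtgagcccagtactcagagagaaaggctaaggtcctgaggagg
Csf3r: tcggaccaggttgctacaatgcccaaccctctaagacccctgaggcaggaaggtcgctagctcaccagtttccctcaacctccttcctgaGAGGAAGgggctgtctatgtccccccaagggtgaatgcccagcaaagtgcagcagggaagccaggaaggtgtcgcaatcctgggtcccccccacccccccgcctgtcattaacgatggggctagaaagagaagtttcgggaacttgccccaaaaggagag

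The CK-1 core began 139 bases before the listed start of Csf2 and the TATA motif 63 bases before it. Among 33469 promoter windows of the same length, 0.72% held the CK-1 core and 11.6% the TATA motif. The ETS core began 160 bases before the start of Csf3r and, on the opposite strand, 230 bases before that of Csf1r, whereas 10.2% of all windows held it. No AP-1 match was found in the windows of Csf2, Csf1r and Csf3r, against 6.34% of all windows. Csf2ra is placed on the plus strand in the count table and on the minus strand in the promoter table, so its window is not described. These matches describe letters only and were not tied to binding.

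Csf3 was the member with the widest range. Its raw counts were 0 in all 4 Sham rats. They were 4, 0, 11 and 1 in MI rats 1, 3, 4 and 5, and 3022, 3495, 3572 and 3196 in iCarP+/Light+ rats 1, 2, 4 and 5. Every iCarP+/Light+ rat was far above every other rat, and the 4 treated values lay close together.

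The mean Csf3 level was 0.215 ± 0.279 CPM in MI rats and 217 ± 22.3 CPM in iCarP+/Light+ rats. Against Sham, where no read was counted, the iCarP+/Light+ level was at least 996-fold higher, taken against the floor of 3 counts per library. The MI mean lay within the range of the floor, so no fold is given to or from it. MI rat 4 was the highest of the MI rats at 11 counts or 0.615 CPM.

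Csf2 was scarce in all groups and was higher in treated rats. Its counts were 0, 0, 1 and 3 in Sham rats 1, 2, 3 and 5, and 6, 1, 16 and 0 in MI rats 1, 3, 4 and 5. In iCarP+/Light+ rats 1, 2, 4 and 5 they were 42, 51, 36 and 80. The Sham and MI rats overlapped and all iCarP+/Light+ rats exceeded both.

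The mean Csf2 level was 0.0742 ± 0.104 CPM in Sham rats, 0.309 ± 0.41 CPM in MI rats and 3.44 ± 1.48 CPM in iCarP+/Light+ rats. The difference between MI and Sham did not pass, with a log2 difference of 1.96 (SE 1.15, edgeR quasi-likelihood adjusted p = 0.153), and that value was 0.65 without MI rat 4 and 3.3 without Sham rat 5. Csf2 and Csf3 entered the fit only through their counts in iCarP+/Light+ rats, which favours a difference there. No test of Csf2 against that group is given. The Sham mean lay below the floor. With every rat below 3 counts set to 3, the log2 ratio to the Sham mean was 0.79 for the MI mean and 3.98 for the iCarP+/Light+ mean. The fitted difference between iCarP+/Light+ and MI was 3.46 (SE 0.79), or 4.77 without MI rat 4.

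Csf1, the macrophage growth factor, was expressed in every rat. Its levels were 33.9, 26.4, 34.7 and 41 CPM in Sham rats, 137, 127, 92.8 and 116 CPM in MI rats, and 190, 149, 170 and 230 CPM in iCarP+/Light+ rats. The 3 groups did not overlap.

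Csf1 rose in MI against Sham by 1.8 on the log2 scale (SE 0.17, edgeR adjusted p = 1.7e-06) and in iCarP+/Light+ against Sham by 2.44 (SE 0.18, edgeR adjusted p = 1.34e-07). The iCarP+/Light+ level was 0.65 above MI (SE 0.17, no test). With libraries scaled by total counts alone this last value was 0.37 while the median of all genes moved to -0.25, and the groups then overlapped.

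**Figure D1:**
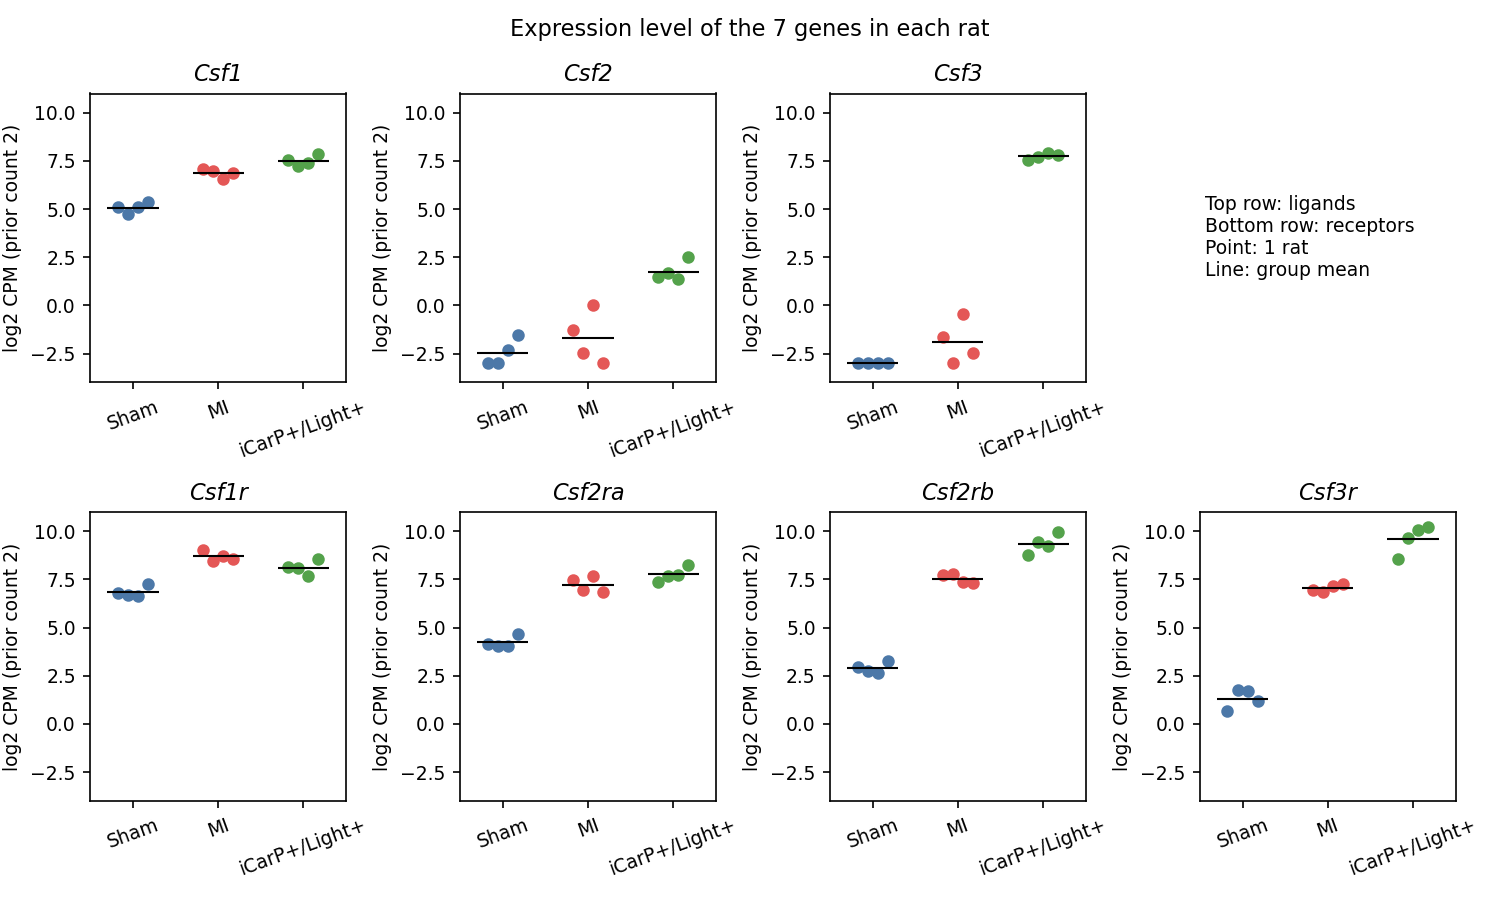
Level of each of the 7 genes in each rat, as log2 CPM with a prior count of 2 (vertical axis), by group (horizontal axis); each point is 1 rat and the line is the group mean. Csf3 lies at or below -0.44 in every Sham and MI rat and between 7.56 and 7.92 in iCarP+/Light+ rats, whereas the mean of Csf1r is highest in MI.

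All 4 receptor genes were higher in MI than in Sham. Csf3r, the receptor of G-CSF, was at 1.44, 3.21, 3.11 and 2.14 CPM in Sham rats and at 125, 116, 145 and 154 CPM in MI rats. It was at 373, 795, 1090 and 1190 CPM in iCarP+/Light+ rats 1, 2, 4 and 5. The groups did not overlap, and iCarP+/Light+ rat 1 was well below the other treated rats.

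Csf3r rose by 5.76 on the log2 scale in MI against Sham (SE 0.38, edgeR adjusted p = 1.18e-07), and by 8.44 in iCarP+/Light+ against Sham (SE 0.42, edgeR adjusted p = 1.32e-08). The iCarP+/Light+ mean was 861 ± 367 CPM and the MI mean 135 ± 17.6 CPM, a log2 difference of 2.67 (SE 0.31, no test).

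Csf2rb, the signal-transducing chain of the GM-CSF receptor, followed the same order. It was at 7.58, 6.55, 6.07 and 9.58 CPM in Sham rats, at 210, 216, 164 and 158 CPM in MI rats, and at 435, 690, 591 and 1000 CPM in iCarP+/Light+ rats. The groups did not overlap. Csf2rb rose by 4.65 in MI against Sham (SE 0.27, edgeR adjusted p = 5.78e-08) and by 6.51 in iCarP+/Light+ against Sham (SE 0.29, edgeR adjusted p = 9.64e-09), and the iCarP+/Light+ level was 1.86 above MI (SE 0.23, no test), all on the log2 scale.

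Csf2ra, the ligand-binding chain of the same receptor, was at 17.3, 16.5, 16.6 and 25.1 CPM in Sham rats, at 177, 122, 207 and 114 CPM in MI rats and at 163, 208, 210 and 307 CPM in iCarP+/Light+ rats. The MI and iCarP+/Light+ rats overlapped. On the log2 scale Csf2ra rose by 3.04 in MI (SE 0.25, edgeR adjusted p = 5.11e-07) and by 3.55 in iCarP+/Light+ (SE 0.26, edgeR adjusted p = 1.28e-07) against Sham, and the iCarP+/Light+ level was 0.52 above MI (SE 0.23, no test).

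Csf1r, the M-CSF receptor, was the only member with a lower mean in iCarP+/Light+ than in MI. It was at 113, 103, 101 and 152 CPM in Sham rats, at 525, 352, 421 and 377 CPM in MI rats and at 279, 274, 204 and 374 CPM in iCarP+/Light+ rats. Only iCarP+/Light+ rat 5 reached into the range of MI. Csf1r rose by 1.84 in MI (SE 0.2, edgeR adjusted p = 4.78e-06) and by 1.27 in iCarP+/Light+ (SE 0.2, edgeR adjusted p = 8.61e-05) against Sham, and the log2 difference between iCarP+/Light+ and MI was -0.56 (SE 0.2, no test).

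The 5 members other than Csf2 and Csf3 met the filter on low counts without the treated rats, as did 14560 of the 15101 genes tested. All 5 passed with higher levels in MI against Sham, when 30.1% of the 14560 genes passed with higher and 34.6% with lower levels. All 5 also passed with higher levels in iCarP+/Light+ against Sham, against 32.7% higher and 34.1% lower among the 14560 genes. Both comparisons share the Sham rats. Between iCarP+/Light+ and MI, 5 of the 7 members were higher in every treated rat than in any MI rat and 2 overlapped, while 12.1% of all genes were higher and 4.38% lower without overlap. The rule that chose the genes used this contrast, and nothing is read from that count. The exact two-sided permutation test gave p = 0.0286, the smallest that 70 arrangements of 4 rats against 4 allow, for each of these 5 members in both comparisons with Sham, and p = 0.371 for Csf2 in MI.

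Per gene length the order of the genes differed between groups. In Sham it was Csf1r (29.4 ± 6 RPKM), Csf2ra (13.5 ± 2.98 RPKM), Csf1 (8.39 ± 1.47 RPKM), Csf2rb (2.23 ± 0.467 RPKM) and Csf3r (0.604 ± 0.205 RPKM), with no overlap between these neighbours. In MI, Csf2ra (111 ± 31.7 RPKM) and Csf1r (105 ± 19.2 RPKM) overlapped at the top. Csf2rb followed at 56.1 ± 9.07 RPKM, and Csf3r (32.9 ± 4.29 RPKM) and Csf1 (29.2 ± 4.69 RPKM) overlapped below it.

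In iCarP+/Light+ rats Csf3r (210 ± 89.5 RPKM), Csf2rb (204 ± 71.6 RPKM), Csf3 (168 ± 17.2 RPKM) and Csf2ra (159 ± 43.7 RPKM) overlapped with their neighbours in the order. Csf1r (71.1 ± 17.5 RPKM) and Csf1 (45.6 ± 8.5 RPKM) lay below them and overlapped with each other, and Csf2 was lowest at 7.8 ± 3.35 RPKM. Csf3r thus stood last of the 5 clearly expressed genes in Sham and had the highest mean in iCarP+/Light+ rats, while Csf1r had the highest mean in Sham and the lowest mean of the receptor genes in iCarP+/Light+ rats.

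**Figure D2:**
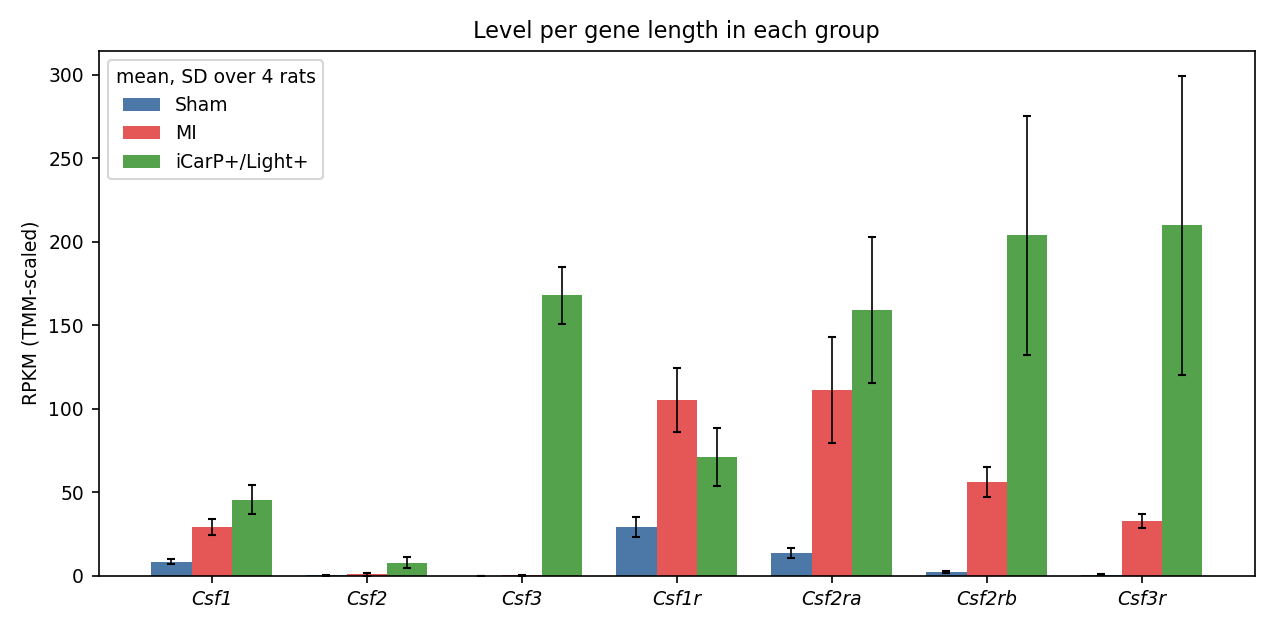
Mean level per gene length (RPKM, vertical axis from 0) of the 7 genes (horizontal axis) in the 3 groups; bars are means and error bars SD over 4 rats, with lower bars ending at 0. Csf3 is visible only in iCarP+/Light+ rats at 168 ± 17.2 RPKM, and Csf1r is the only gene whose mean is lower there than in MI.

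Ratios between members within a rat do not depend on how libraries are scaled. In all, 6 comparisons of ratios with Sham were tested by two-sided exact permutation with Benjamini-Hochberg adjustment over them. The ratio of Csf3r to Csf1r was 0.0216 ± 0.00987 in Sham rats, 0.321 ± 0.0686 in MI rats and 3.09 ± 1.59 in iCarP+/Light+ rats. It was above 1 in every treated rat (1.3 to 5.17) and below 1 in every other rat. Both differences from Sham passed (exact permutation p = 0.0286, adjusted 0.0343).

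The ratio of Csf2rb to Csf2ra was 0.166 ± 0.013 in Sham rats, 0.537 ± 0.17 in MI rats and 1.26 ± 0.135 in iCarP+/Light+ rats. Per listed gene length the alpha chain thus stood above the beta chain in every Sham and MI rat, and the reverse held in every treated rat. The side of 1 on which this ratio fell rests on the listed lengths, whereas its change between groups does not. Both differences from Sham passed (exact permutation p = 0.0286, adjusted 0.0343). The ratio of Csf1 to Csf1r was 0.288 ± 0.0377 in Sham and 0.283 ± 0.0591 in MI, a log2 difference of -0.04 (exact permutation p = 0.857, adjusted 0.857). In iCarP+/Light+ rats it was 0.657 ± 0.121, a log2 difference from Sham of 1.18 (exact permutation p = 0.0286, adjusted 0.0343), and each treated rat (0.535 to 0.819) was above each MI rat (0.217 to 0.354).

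For Csf3 and Csf3r the ratio was at most 0.0135 in MI rats, and it was 1.61, 0.842, 0.706 and 0.597 in iCarP+/Light+ rats 1, 2, 4 and 5. The highest of these came from rat 1, where Csf3r was lowest. For Csf2 and Csf2ra the ratio was between 0.0367 and 0.0579 in treated rats, so Csf2 remained far below its receptor chain in RNA.

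**Figure D3:**
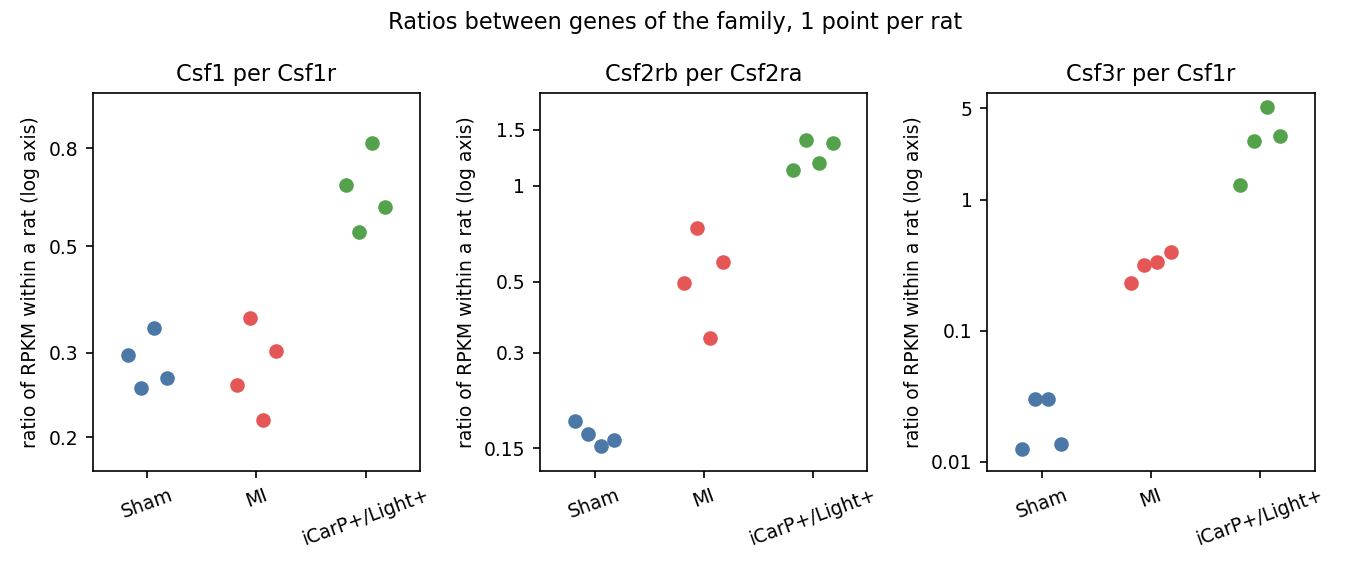
Ratios of levels per gene length within each rat (vertical log axis) for Csf1 to Csf1r, Csf2rb to Csf2ra and Csf3r to Csf1r, by group (horizontal axis); each point is 1 rat. The Csf1 to Csf1r ratio overlaps between Sham and MI, while the other ratios rise in steps that do not overlap.

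Markers of the cells that carry these receptors were read in the same rats. The neutrophil list held 12 genes without Csf3r, and its summed level was 19.4 to 32.3 CPM in Sham rats, 326 to 602 CPM in MI rats and 3200 to 8850 CPM in iCarP+/Light+ rats. In Sham rats Lcn2 alone made up 16.1 of the mean sum of 24.9 CPM, and its mean was 20.1 CPM in MI rats (edgeR adjusted p = 0.41 against Sham). Of the 9 neutrophil markers that met the filter on low counts without the treated rats, 9 passed with higher levels in treated than in MI rats, against 11% of the 14560 genes. No count against Sham is given, because several of these markers were too scarce there to reach the filter. Cxcr1 was at 0 in every Sham rat and had at most 3 counts in any rat. Ngp was also too scarce to be tested, at 0.418, 0.224 and 0.291 CPM in Sham, MI and iCarP+/Light+, and did not follow the other markers. Camp met the filter only through the treated rats and was left out of the count. The 4 treated rats held 3200, 6710, 5830 and 8850 CPM of these markers in rats 1, 2, 4 and 5, and rat 1 was lowest in both the markers and Csf3r. The part of cell composition in the members' differences was not tested.

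The macrophage list held 12 matched genes without Csf1r, with sums of 520 to 805 CPM in Sham rats, 3830 to 6710 CPM in MI rats and 2940 to 4780 CPM in iCarP+/Light+ rats. Lyz2 alone made up 211 of the mean sum of 603 CPM in Sham rats, 4060 of 5250 CPM in MI rats and 2960 of 3980 CPM in iCarP+/Light+ rats. Of 11 markers tested, 7 were higher and 0 lower in MI than in Sham, against 30.1% and 34.6% of the 14560 genes, and Adgre1, C1qa, C1qb and C1qc did not pass. Treated rats had 7 higher and 3 lower than Sham, against 32.7% and 34.1%, and the lower genes were C1qa, C1qb and C1qc. They had 1 higher and 5 lower than MI, against 11% and 2.09%. Marco was at 0 in every Sham and MI rat.

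Fibroblasts and endothelial cells can also make colony-stimulating factors. The 6 fibroblast markers summed to 8040 to 9940 CPM in Sham, 2130 to 2520 CPM in MI and 1100 to 2580 CPM in iCarP+/Light+ rats, and the 6 matched endothelial markers to 1610 to 1790, 688 to 1090 and 917 to 1030 CPM. The part of these cells in the level of Csf1 was not tested. The 7 matched T cell markers summed to 45.3 to 68.9, 118 to 249 and 45.2 to 92.2 CPM (Cd8a alone made up 127 of the mean of 176 CPM in MI, while Cd4 was lower there than in Sham), and the 5 matched red blood cell markers to 6550 to 8640, 2010 to 5750 and 5230 to 14600 CPM, in the same order of groups. Against MI, 3 of the 5 red blood cell markers passed with higher levels in iCarP+/Light+, against 11% of the 14560 genes, and the part of blood in the samples was not tested.

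**Figure D4:**
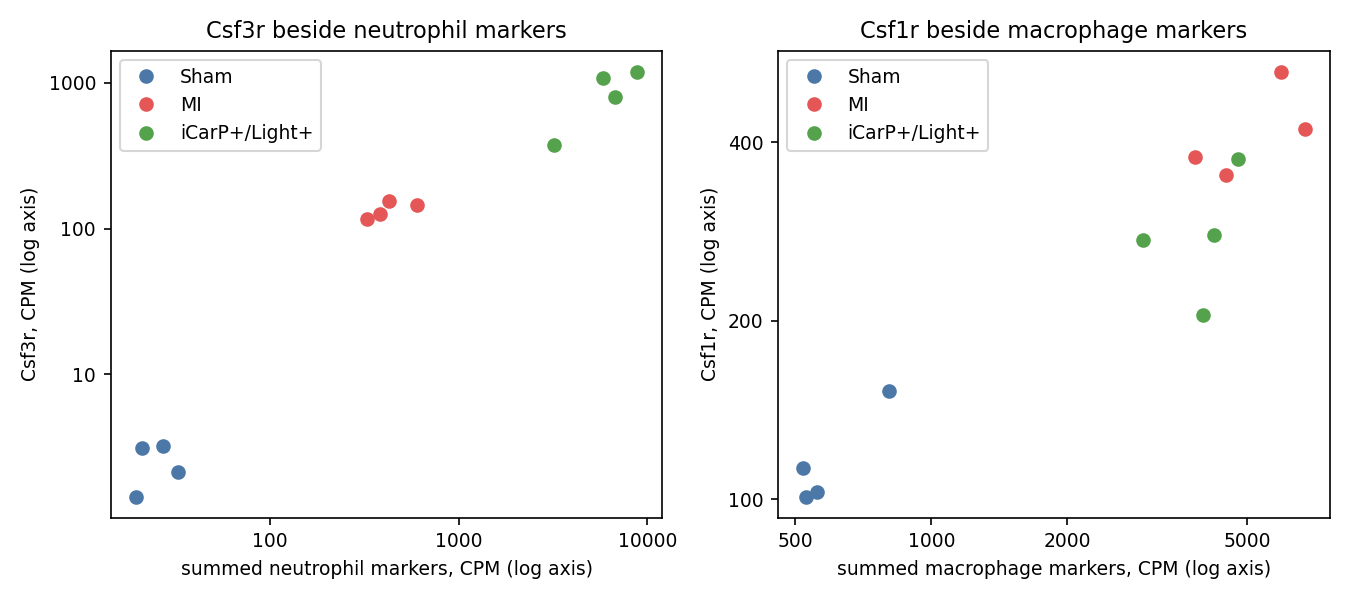
Csf3r against the summed level of 12 neutrophil markers (left) and Csf1r against the summed level of 12 macrophage markers (right), in CPM on log axes; each point is 1 rat. Csf3r and the neutrophil sum separate all 3 groups, while Csf1r and the macrophage sum, most of which is Lyz2 in the infarcted groups, overlap between MI and iCarP+/Light+.

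Close relatives of the family were read beside it. Il34, the other ligand of Csf1r, was at 16.3 CPM in Sham rats, 8.75 CPM in MI rats and 3.96 CPM in iCarP+/Light+ rats. It fell by 2.03 on the log2 scale in iCarP+/Light+ against Sham (SE 0.5, edgeR adjusted p = 0.00295), or by 2.64 without iCarP+/Light+ rat 1, while MI against Sham (-0.89, edgeR adjusted p = 0.117) and iCarP+/Light+ against MI (-1.13, edgeR adjusted p = 0.167) did not pass. Treated rats 1, 2, 4 and 5 held 8.13, 4.71, 2.5 and 0.492 CPM of Il34, a wide spread. Il3ra, the alpha chain of the interleukin 3 receptor, rose in MI (log2 difference 1.01, edgeR adjusted p = 0.000829) and in iCarP+/Light+ (0.97, edgeR adjusted p = 0.00105) against Sham, and its log2 difference between the infarcted groups was -0.04 (edgeR adjusted p = 0.93). Il3 had no count in any rat, Il5 at most 2 and Il5ra at most 6.

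Other genes of the pathway were read from 6 lists with 67 genes, of which 62 were tested. The inducers Il1a and Tnf met the filter on low counts only through the treated rats and are left out of the counts that follow, which leaves 60. In MI against Sham 39 (65%) were higher and 6 lower, against 30.1% higher and 34.6% lower of the 14560 genes that met the filter without treated rats. In iCarP+/Light+ against Sham 50 (83.3%) were higher and 6 lower, against 32.7% and 34.1%. In iCarP+/Light+ against MI 32 (53.3%) were higher and 1 was lower, against 11% and 2.09%. The same shares of the 14560 genes stand behind the counts of each list below. The median log2 difference of the 60 genes from MI was 0.62, and that of the 14560 genes 0.

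The inducers list held cytokines, toll-like receptors and NF-κB subunits that switch on transcription of colony-stimulating factors. Il1a, an interleukin 1 ligand, was at 5, 4, 13 and 0 counts in MI rats and 3704, 2998, 4011 and 5244 counts in iCarP+/Light+ rats, so the groups did not overlap. It was at 3, 0, 0 and 5 counts in Sham rats. Il1b, the other interleukin 1 ligand, was at 35.9, 41.2, 63.9 and 30.5 CPM in MI rats and at 1130, 1370, 1820 and 2430 CPM in iCarP+/Light+ rats. In iCarP+/Light+ against MI the 9 genes of this list that met the filter without treated rats passed with higher levels, among them Il1b (log2 difference 5.3, SE 0.34, edgeR adjusted p = 1.77e-06), Nfkb2 (2.28, SE 0.2, edgeR adjusted p = 1.21e-05) and Nfkb1 (1.28, SE 0.14, edgeR adjusted p = 7.02e-05).

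In MI against Sham 5 of these 9 inducers passed. Il1b rose by 4.04 on the log2 scale (edgeR adjusted p = 5.92e-07) and the toll-like receptor Tlr2 by 3.7 (edgeR adjusted p = 4.56e-07), and the adaptor Myd88 rose by 1.64 (edgeR adjusted p = 4.92e-06). All 9 passed in iCarP+/Light+ against Sham, with Il1b at 9.34 (edgeR adjusted p = 9.64e-09), Tlr2 at 5.77 (edgeR adjusted p = 2.72e-08) and Myd88 at 2.46 (edgeR adjusted p = 1.68e-07). Tnf, whose call is likewise not given, had at most 3 counts in any Sham or MI rat and 20, 13, 17 and 27 counts in iCarP+/Light+ rats. Il17a had at most 1 count in any rat and was not tested.

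Of 20 receptor signalling genes, 14 were higher and 1 lower in MI than in Sham. Tyrobp, an adaptor of myeloid receptors, rose by 3.91 (edgeR adjusted p = 7.37e-08), the exchange factor Vav1 by 3.39 (edgeR adjusted p = 8.22e-08) and the Src family kinase Fgr by 3.72 (edgeR adjusted p = 3.42e-07). Against Sham, 17 were higher and 1 lower in iCarP+/Light+. Tyrobp rose by 4.91 (edgeR adjusted p = 1.37e-08), Vav1 by 3.77 (edgeR adjusted p = 2.39e-08) and Jak2, the kinase that the beta chain and Csf3r engage, by 2.38 (edgeR adjusted p = 2.63e-08).

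Between iCarP+/Light+ and MI, 10 of the 20 signalling genes were higher and 10 did not pass. Fgr rose by 1.79 (edgeR adjusted p = 0.000525), Jak2 by 0.87 (edgeR adjusted p = 0.000561) and the kinase Lyn by 1.28 (edgeR adjusted p = 0.000681).

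The list of signal inhibitors and phosphatases was read next. In MI against Sham 5 of 10 were higher and 3 lower (30%), the latter share below the 34.6% of the 14560 genes. Socs3, a feedback inhibitor induced through STAT3, rose from 7.35 ± 1.52 CPM in Sham to 59.9 ± 7.28 CPM in MI, by 3.03 on the log2 scale (edgeR adjusted p = 5.28e-07). Dok2 rose by 3.24 (edgeR adjusted p = 5.96e-08) and the phosphatase Ptpn6 by 2.76 (edgeR adjusted p = 9.99e-08). Socs2 fell by 2.48 (edgeR adjusted p = 8.77e-08), Cish, a target of STAT5, fell by 2.53 (edgeR adjusted p = 2.02e-06) and Ptpn11 fell by 0.7 (edgeR adjusted p = 0.000413), the last of which was lost with libraries scaled by total counts alone.

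Of the list of inhibitors and phosphatases, 5 genes were higher and 1 lower in iCarP+/Light+ than in MI. Socs3 was at 63.8, 66.2, 59.9 and 49.7 CPM in MI rats and at 296, 532, 713 and 596 CPM in iCarP+/Light+ rats, and rose by 3.16 (SE 0.24, edgeR adjusted p = 4.44e-06). Cish rose by 1.68 (edgeR adjusted p = 0.000487) and Socs2 by 1.02 (edgeR adjusted p = 0.000556), whereas Dok2 fell by 0.72 (edgeR adjusted p = 0.012). Against Sham, 6 genes of this list were higher in iCarP+/Light+ and 3 lower. Socs3 rose by 6.18 (edgeR adjusted p = 9.64e-09), Ptpn6 by 3.28 (edgeR adjusted p = 2.32e-08) and Dok2 by 2.52 (edgeR adjusted p = 1.35e-07), while Socs2 fell by 1.47 (edgeR adjusted p = 2.26e-06), Ptpn11 fell by 0.72 (edgeR adjusted p = 0.000313) and Cish fell by 0.85 (edgeR adjusted p = 0.00638).

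Of the myeloid transcription factors, which specify granulocytes and monocytes, 8 of 9 tested were higher and 1 was lower in MI than in Sham. Cebpa rose by 4.44 (edgeR adjusted p = 5.31e-08) and Runx1 by 3.22 (edgeR adjusted p = 5.76e-08), and Klf4 fell by 1.04 (edgeR adjusted p = 1.45e-05). Cebpe, 1 of the higher genes, reached the level of the filter in no Sham rat, and without it 7 of 8 were higher. The counts were the same in iCarP+/Light+ against Sham, with Runx1 at 4.14 (edgeR adjusted p = 9.64e-09), Cebpa at 3.96 (edgeR adjusted p = 4.06e-08) and Klf4 at -0.88 (edgeR adjusted p = 5.52e-05). Between iCarP+/Light+ and MI 4 of 9 were higher. Cebpb, which acts in emergency granulocyte production, rose from 264 ± 96.6 to 1270 ± 338 CPM, by 2.26 on the log2 scale (edgeR adjusted p = 0.000129). Runx1 rose by 0.92 (edgeR adjusted p = 0.00166) and Cebpd by 1 (edgeR adjusted p = 0.00915), and Cebpd did not pass without iCarP+/Light+ rat 5 (edgeR adjusted p = 0.0522).

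Genes for factors that bind or cleave cytokine messages formed the last list. In MI against Sham 6 of 10 were higher, with Hnrnpd at 1.01 (edgeR adjusted p = 4.73e-06), Zfp36 at 1.26 (edgeR adjusted p = 0.000381) and Elavl1 at 0.44 (edgeR adjusted p = 0.00492). The 1 lower gene, N4bp1 (-0.47, edgeR adjusted p = 0.0479), stood at the threshold, and with libraries scaled by total counts alone its value was 0.11. Compared with MI, 4 of 10 were higher in iCarP+/Light+. Zc3h12a, the ribonuclease Regnase-1, rose from 21.3 ± 1.51 to 175 ± 51.4 CPM (log2 difference 3.04, SE 0.2, edgeR adjusted p = 1.94e-06), N4bp1 rose by 2.07 (edgeR adjusted p = 2.57e-05) and Zfp36, or tristetraprolin, by 2.11 (edgeR adjusted p = 6.9e-05). Against Sham 9 of 10 were higher in iCarP+/Light+, with Zc3h12a at 3.34 (edgeR adjusted p = 4.33e-08), Zfp36 at 3.37 (edgeR adjusted p = 1.58e-07) and Arid5a at 1.93 (edgeR adjusted p = 4.09e-06).

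**Figure D5:**
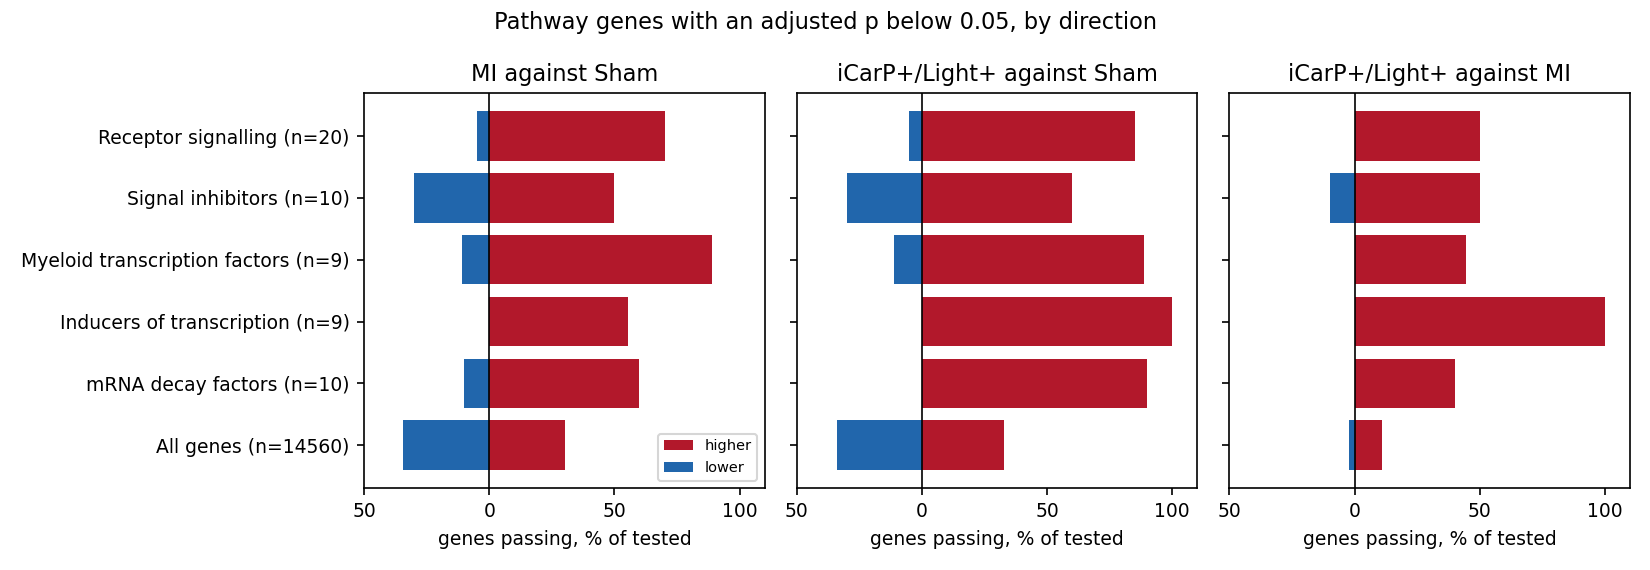
Share of genes of 5 pathway lists and of 14560 genes (bottom bar), all of which met the filter on low counts without the treated rats, that passed an adjusted p of 0.05, in percent (horizontal axis), to the right when higher and to the left when lower, for the 3 comparisons; n is the number of genes tested. In iCarP+/Light+ against MI all 9 inducers were higher, against 11% of the 14560 genes.

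The genes whose pattern over the 12 rats was most like each member were taken by Pearson's r of log2 CPM among 14255 tested genes with a symbol. The rats fall into 3 groups that set most of each r, so these are descriptions. The pool also holds genes that met the filter only through treated rats, such as Il19 and Il1a, and these resemble Csf3 for that reason too. Csf3 was most like Il19 (0.991), Il1a (0.989) and Traf1 (0.988). Il19 itself was scarce, at 0.972 CPM in iCarP+/Light+ rats, whereas Traf1 was at 5.64, 7.55 and 61 CPM in Sham, MI and iCarP+/Light+. Csf2 was most like Sdcbp, Ccl4 and Casp8 (0.965 each), and of these the chemokine Ccl4 was at 2.74, 10.5 and 132 CPM in the 3 groups.

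Chi3l1 and Clec4d (0.995 each) were among the genes most like Csf3r. Csf2rb was most like the chemokine receptor Ccr1, LOC100361457 and Litaf (0.997 each), and Ccr1 was at 3.01, 103 and 436 CPM in Sham, MI and iCarP+/Light+. Csf2ra was most like Rnh1 (0.998), Crlf2 (0.998) and Skap2 (0.997), and Crlf2, a cytokine receptor chain, was at 9.93, 54.8 and 67.3 CPM. Csf1 was most like Uso1 (0.991), Cass4 (0.99) and Msn (0.989), and Csf1r was most like AABR07065602.1 (0.981), Map1s (0.981) and Vac14 (0.98).

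In the coordinates of build rn6 given with the counts, Csf3 (ENSRNOG00000008525) lay at chr10:86616785-86619157 and Csf2 (ENSRNOG00000026805) at chr10:39602089-39604070. Csf1 (ENSRNOG00000018659) lay at chr2:210522375-210550560. The receptor genes lay at chr18:56414488-56458300 for Csf1r (ENSRNOG00000018414), chr14:1462358-1467264 for Csf2ra (ENSRNOG00000049782), chr7:119554354-119568776 for Csf2rb (ENSRNOG00000000187) and chr5:144031402-144051600 for Csf3r (ENSRNOG00000008759). No other gene in the count table overlapped any of the 7.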

How the data were processed

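Left ventricular RNA from 12 rats (4 per group) was extracted with Trizol and made into libraries with the NEBNext Ultra kit. The authors deposited raw read counts per gene, with gene position and length. HISAT2, featureCounts and build rn6 are named in the submitters' processing notes, while their settings, the strand setting included, are not given in the sources used here, so multi-mapped or antisense reads could move single genes. Counts were tested with edgeR 4.0.16 (R 4.3.3): filterByExpr with a minimum count of 10, TMM, 1 mean per group over all 12 rats, the quasi-likelihood test, and Benjamini-Hochberg adjustment over 15101 genes at 0.05. CPM used TMM-scaled totals, RPKM the listed gene lengths, and log2 CPM a prior count of 2. The code was checked on data made with known differences. Alternatives used DESeq2 1.42.0, limma 3.58.1 (voom), other scalings and filters, a replicate block, and each rat left out. Figures used matplotlib 3.10.9.

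Groups came from the sample labels. Rats within a group differed beyond sampling noise (chi-square per gene of 14 to 111 over 18 pairs), so each was counted as 1 replicate. The members and lists were chosen with earlier results of these data known. Named genes were all 7 members, relatives of the family, up to 3 genes per list, comparison and direction with the smallest p, and the 3 genes most like each member. Some genes named by this rule are not reported here, and they stay in the counts over their lists. Of the listed symbols, 143 of 147 were matched. Genes that met the filter only through iCarP+/Light+ rats (541 of 15101) were admitted by their level there, which favours a difference. Counts of members and list genes that passed were therefore taken without them, a choice made after seeing the data. Because iCarP+/Light+ against MI chose the members, no count of members passing that comparison is given. Promoter sequence came from RefSeq (GRCr8), and no GRCr8 coordinate was set beside an rn6 one.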

Additional observations from a re-analysis of the deposited data

Results flagged for a closer look

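Csf2ra in Sham rat 5 stood apart from the other Sham rats. Its level was 25.1 CPM against 16.5 to 17.3 CPM in the others, and on the log2 scale the gap to the nearest rat was 0.884 of the group's range, above Dixon's 95% critical value for 4 samples. It was the only 1 of 32 groups looked at, of which chance flags about 1.6. The macrophage marker sum was also highest in that rat, at 805 CPM against 520 to 558 CPM, as was Csf1r, at 152 CPM against 101 to 113 CPM. Every MI and iCarP+/Light+ rat was above it, at 114 CPM or more.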

How the results depend on the processing

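The 5 members other than Csf2 and Csf3 passed with higher levels in both comparisons with Sham under all settings tried. Values were labelled by kind. Tested genes were the same if direction and call were kept, and counts if they stayed within a fixed ratio of the main count. Untested member values were the same if they shifted by no more than the pooled SD of the groups compared. Of 826 values under alternative settings, 806 were the same, 10 moved, 9 no longer passed and 1 reversed. With 1 rat left out, 1098 of 1116 values were the same, 7 moved and 11 no longer passed. N4bp1 in MI against Sham accounted for 7 of these 9, for 10 of the 11 and for the reversal (0.11 with total counts alone). Between iCarP+/Light+ and MI, members without overlap were 5 higher and 0 lower. Total counts alone, tried for this count after seeing the data, made these 4 and 1, the latter being Csf1r, and leaving out 1 rat gave 5 to 6 higher (Csf2ra added without iCarP+/Light+ rat 1) and 0 to 1 lower (Csf1r without MI rat 3 or iCarP+/Light+ rat 5). Pathway genes lower in MI than in Sham were 6, or 3 with total counts alone, and those lower in iCarP+/Light+ than in MI were 1, or 6 with total counts alone, 3 with DESeq2 and 1 to 2 with 1 rat left out (2 without iCarP+/Light+ rat 1). Total counts alone shifted the median of all genes to 0.52, 0.33 and -0.25 in MI against Sham, iCarP+/Light+ against Sham and iCarP+/Light+ against MI. The share of calls that were higher was then 73.5%, 64.7% and 30.7%, against 47.3%, 50.3% and 85.2% with TMM. In iCarP+/Light+ against MI, 1747 genes passed higher and 304 lower. These counts became 1204 and 2722 with total counts alone, 1565 and 457 with DESeq2 size factors, 1919 and 699 with DESeq2, and 1248 and 475 when every rat had to reach 10 counts. With 1 rat left out they lay between 1125 (without iCarP+/Light+ rat 5) and 2066 higher and between 157 (without iCarP+/Light+ rat 2; 164 without MI rat 1) and 438 lower. In MI against Sham total counts alone gave 7707 higher and 2776 lower, against 4553 and 5080. Csf2 and Csf3 could not be fitted under the filter of 10 counts in every rat.

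Same-numbered rats of different groups did not deviate together (r of -0.15 to 0.0654, and 0 of 12 rats correlated best with its own number), so the numbers do not pair the rats. The replicate block gave 1157 higher and 141 lower genes in iCarP+/Light+ against MI, and it changed no member's call (Csf2 in MI against Sham: 1.57).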
